A study of Mus musculus with 29 samples.

Results

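Gfi1 and Gfi1b are paralogous zinc-finger repressors, and the peaks called at their loci are described here for every ChIP-seq list of the series. Members were the peak summits that the authors kept and that lay in the body of Gfi1 or Gfi1b or within 50 kb of it in mm9. Of 175162 kept summits in 9 lists, 45 met this rule, 27 at Gfi1 and 18 at Gfi1b. Summits over the coding exons of Gfi1 were set apart, because some of the lines carry an inserted Gfi1 coding sequence whose DNA maps to the same exons.

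ChIP-seq (chromatin immunoprecipitation followed by sequencing) was done on 6 doxycycline-inducible mouse embryonic stem cell lines derived from A2loxCre cells, with 17 ChIP and 12 input libraries. Every cassette also encoded the Venus reporter, and every line was grown as embryoid bodies, aggregates of differentiating stem cells, and taken at day 6 after 48 h in 2 µg/ml doxycycline. The lines were iAtoh1 (inserted Atoh1), iPou4f3 (Pou4f3), iG+A (Gfi1 and Atoh1), iG+P (Gfi1 and Pou4f3), iP+A (Pou4f3 and Atoh1) and iGPA (all 3 factors). In each line with a tagged factor that factor was precipitated, Atoh1 by its FLAG tag (lists of iGPA, iP+A, iG+A, iAtoh1) and Pou4f3 by its MYC tag (lists of iGPA, iP+A, iG+P, iPou4f3). The untagged Gfi1 was precipitated in iGPA with an antibody to Gfi1. Replicates were different clones of a line, with 2 libraries per ChIP group except Gfi1, which had 1. The authors merged them before calling peaks, so no value below has a spread between replicates, and ChIP libraries of uninduced cells were not analysed here. The peaks come from overexpressed factors in embryoid bodies, which are not hair cells (HCs).

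Gfi1 acts through an N-terminal SNAG domain, which recruits the histone demethylase Kdm1a and its partner Rcor1 together with histone deacetylases, and through zinc fingers that read an AATC core. In the inner ear Gfi1 is needed for the survival of HCs, and its expression there depends on Pou4f3. Gfi1b is best known from the erythroid and megakaryocytic lineages of blood, where both proteins repress the gene of the other.

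The lists held 3012 to 32632 kept peaks, with a median fold enrichment of 2.96 to 4.40. Fold enrichment is the authors' ratio of the ChIP pileup at the summit over the local background. Read totals were not used here. The pileup recovered from the peak values, in reads extended to the fragment length, stood at 20 to 57 at the 45 summits. Intervals below are exact Poisson 95% intervals of this pileup expressed as fold enrichment. They cover counting error only.

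Windows of 300 bp around the 45 summits joined into 15 sites, 9 at Gfi1 and 6 at Gfi1b. Of these, 10 had a summit in at least 2 lists, and 4 had a summit in every list of Pou4f3 or of Atoh1. The sequences of 6 sites are shown first, because they hold the sites found in every list of a factor away from the starts of neighbouring genes, the sites nearest upstream of each gene and the only summit of the Gfi1 list. Each is the 250 bases of mm9 (assembly NCBIM37) around the summit with the highest −log10 p, given on the plus strand, so that both genes read from right to left. Capitals mark matches on either strand to the Atoh1 E-box (CAGATG, which reads CATCTG on the other strand, and the palindrome CAGCTG), to the Pou4f pattern (ATAATTAAT with at most 1 mismatch) or to the Gfi1 pattern (AATCACTGC or AATCACAGC).
Gfi1 downstream site, chr5:108142260-108142509, all 4 Pou4f3 lists: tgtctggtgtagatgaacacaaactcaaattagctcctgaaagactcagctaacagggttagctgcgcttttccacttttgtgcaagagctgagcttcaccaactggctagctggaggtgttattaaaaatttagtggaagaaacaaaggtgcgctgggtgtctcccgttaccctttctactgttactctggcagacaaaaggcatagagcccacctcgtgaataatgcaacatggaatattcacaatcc
Gfi1 coding exon 3, chr5:108150594-108150843, 7 lists: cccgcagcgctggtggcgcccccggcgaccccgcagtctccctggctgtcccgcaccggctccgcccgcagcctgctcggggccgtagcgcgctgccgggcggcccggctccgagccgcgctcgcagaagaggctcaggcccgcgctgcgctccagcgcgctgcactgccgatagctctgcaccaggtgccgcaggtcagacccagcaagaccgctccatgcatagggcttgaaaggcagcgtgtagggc
Gfi1 upstream site, chr5:108157457-108157706, Pou4f3 lists of iP+A and iGPA: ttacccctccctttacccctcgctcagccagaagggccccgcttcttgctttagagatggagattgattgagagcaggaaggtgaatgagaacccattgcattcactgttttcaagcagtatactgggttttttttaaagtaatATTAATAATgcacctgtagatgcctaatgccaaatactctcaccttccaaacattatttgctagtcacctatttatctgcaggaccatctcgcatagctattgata
Evi5 intron, chr5:108192526-108192775, all 4 Pou4f3 lists: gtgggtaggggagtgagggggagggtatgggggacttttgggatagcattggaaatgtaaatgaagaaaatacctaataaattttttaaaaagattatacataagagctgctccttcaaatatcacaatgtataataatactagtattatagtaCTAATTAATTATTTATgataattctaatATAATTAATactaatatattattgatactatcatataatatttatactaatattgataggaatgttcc
Gfi1b near upstream site, chr2:28485485-28485734, Atoh1 list of iGPA: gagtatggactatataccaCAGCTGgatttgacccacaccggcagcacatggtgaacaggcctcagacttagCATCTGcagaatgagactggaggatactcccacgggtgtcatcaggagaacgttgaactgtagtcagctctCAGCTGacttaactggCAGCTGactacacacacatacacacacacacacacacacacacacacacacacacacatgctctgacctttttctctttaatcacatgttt
Gfi1b upstream site, chr2:28492720-28492969, all 4 Atoh1 lists: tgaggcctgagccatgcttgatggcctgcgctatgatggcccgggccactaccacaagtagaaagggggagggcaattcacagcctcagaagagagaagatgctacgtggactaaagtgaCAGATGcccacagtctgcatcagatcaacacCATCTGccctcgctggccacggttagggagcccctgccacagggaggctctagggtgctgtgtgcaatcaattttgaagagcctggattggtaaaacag

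At the Gfi1 locus, Pou4f3 gave the most summits. Gfi1 lies on chromosome 5 from 108145674 to 108155056 on the minus strand, and distances are given from its outermost annotated start. The 4 Pou4f3 lists held 18 of the 27 summits, the 4 Atoh1 lists 8 and the Gfi1 list 1. Over all 37273 annotated genes the median was 9 summits in the 9 lists together, and 11.3% of genes had 27 or more. These counts include 11 summits over Gfi1 coding exons. Without them Gfi1 had 16 summits, 12 in Pou4f3 lists (3 in each) and 4 in Atoh1 lists (1 in iGPA, 1 in iP+A and 2 in iG+A), and 29.5% of genes had as many when the coding-exon summits of every gene were left out in the same way.

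With coding exons included, Pou4f3 summits at Gfi1 numbered 4 in iGPA, 5 in iP+A, 4 in iG+P and 5 in iPou4f3. At least 1 such summit was present at 57.5% of all genes in iGPA, 53.4% in iP+A, 70.9% in iG+P and 65.7% in iPou4f3, so a Pou4f3 summit near a gene was common. As many summits as at Gfi1 were found at 7.27%, 3.91%, 19.8% and 8.27% of genes in these lists.

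On the same basis, Atoh1 summits at Gfi1 numbered 3 in iGPA, 2 in iP+A and 3 in iG+A, where 64.4%, 55.4% and 58.0% of all genes had at least 1. The iAtoh1 list had none, against 46.6% of genes with at least 1. Its nearest kept summit was 175 kb from the Gfi1 start, and it had no called peak in the window either. The 3 lists with Atoh1 summits at Gfi1 were those of the lines that carried a second factor, but the iAtoh1 list was also the shortest Atoh1 list, with 15568 kept peaks, and the part of list length in this difference was not tested.

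**Figure D1:**
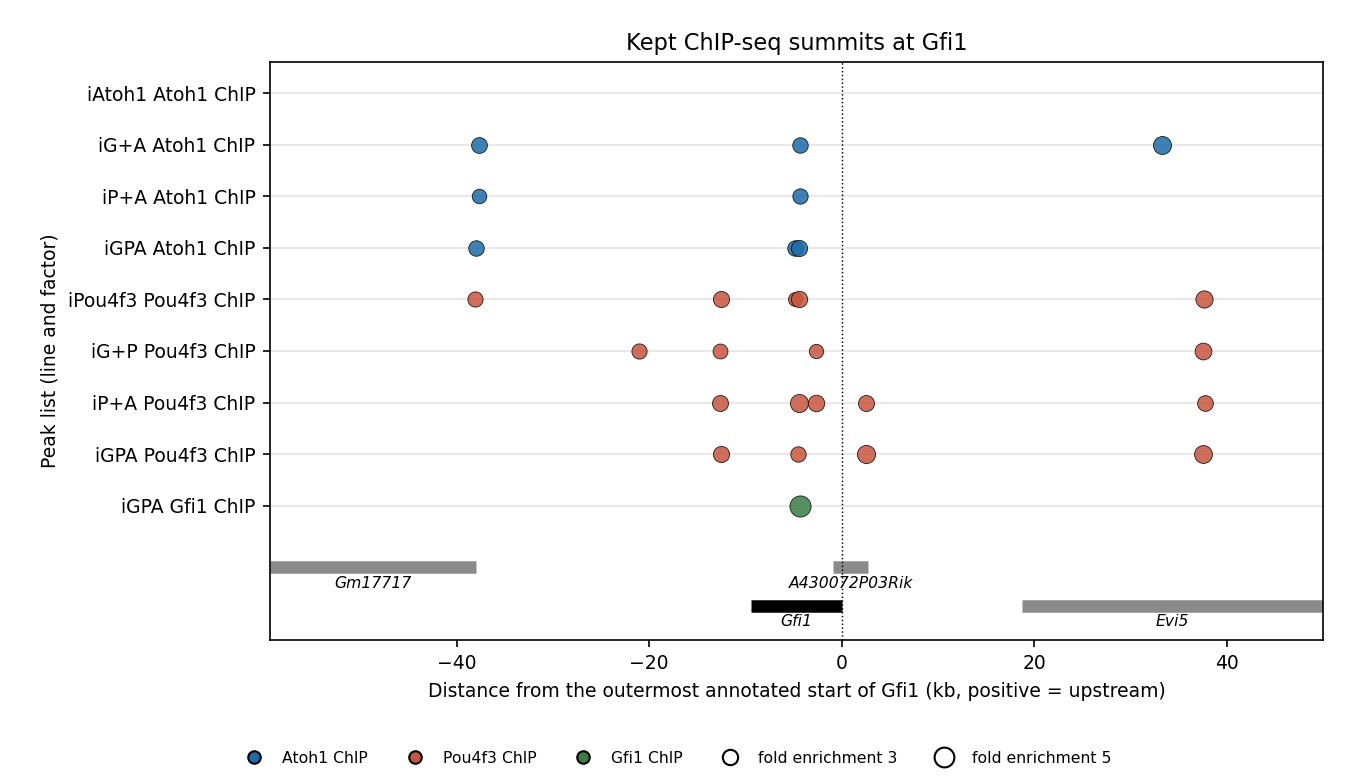
Kept summits at Gfi1 by peak list (y axis) and distance from the outermost annotated Gfi1 start in kb (x axis, positive upstream). Each point is a summit, its area scales with fold enrichment, its colour gives the precipitated factor, and bars below are annotated genes. The Pou4f3 lists line up at 2 positions, the downstream site and the Evi5 intron, and the iAtoh1 row is empty.

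A merged site with a summit in all 4 Pou4f3 lists was found 2 times at Gfi1, against 32.2% of genes with at least 1. The first lay 12.7 kb downstream of the start, between Gfi1 and the long noncoding RNA gene Gm17717 and beyond the 3′ end of Gfi1. Fold enrichment there was 3.35 in iGPA (2.15 to 5.00), 3.28 in iP+A (2.22 to 4.69), 2.85 in iG+P (1.88 to 4.15) and 3.33 in iPou4f3 (2.23 to 4.79). The 4 values lay within each other's intervals, and their percentiles among the folds of their lists were at most 56.3. No E-box, Pou4f or Gfi1 pattern was found in the 250 bases printed above, nor around the other summits of the site.

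The second Pou4f3 site lay 37.6 kb upstream, in an intron of Evi5, which encodes a TBC-domain protein. Fold enrichment was 4.08 in iGPA (2.74 to 5.87), 3.17 in iP+A (2.13 to 4.56), 3.61 in iG+P (2.51 to 5.05) and 3.80 in iPou4f3 (2.62 to 5.35), again with overlapping intervals. By percentile within their lists the order differed, at 46.3 in iGPA, 49.8 in iP+A, 71.1 in iG+P and 64.6 in iPou4f3. The window of the iPou4f3 summit, printed above, was 26.4% G or C, the lowest of the 15 sites, and held 4 Pou4f matches, of which 3 overlapped each other. The window of the iP+A summit held 1 match, and those of the iGPA and iG+P summits held 0. Matches with no mismatch started 32 and 57 bases to the right of the iPou4f3 summit. The nearer, ATTAATTAT, is the pattern read on the other strand and is among the overlapping matches.

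The summits nearest upstream of Gfi1 came from Pou4f3 lists of lines that also carried Atoh1. They lay 2.53 kb upstream in iGPA, at 4.22-fold (2.86 to 6.04), and 2.54 kb upstream in iP+A, at 3.28-fold (2.22 to 4.69). Both were in an intron of A430072P03Rik, a noncoding RNA gene on the plus strand that overlaps the 5′ end of the Gfi1 body. The intervals overlapped. No peak was called there in iPou4f3 or iG+P, the lines without Atoh1, and no Atoh1 list had a summit there. The pileup was 28 reads at each of the iGPA and iP+A summits. The share of all Pou4f3 sites with this same pattern of lists is not given here, and a part of Atoh1 in it was not tested. The window held 1 Pou4f match, 19 bases to the right of the iGPA summit.

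Around the start of Gm17717, 37.7 kb downstream of the Gfi1 start, summits of iGPA, iP+A and iG+A in Atoh1 ChIP and of iPou4f3 in Pou4f3 ChIP joined into 1 site. Atoh1 fold enrichment was 3.08 in iGPA, 2.69 in iP+A and 3.20 in iG+A, and Pou4f3 fold enrichment in iPou4f3 was 2.97. The window of the iG+A summit held the E-box CAGCTG, 5 bases from the summit. The other sites at Gfi1 outside its exons were each in 1 list, an Atoh1 summit of iG+A in an Evi5 intron 33.3 kb upstream, with 2 E-boxes and 4.14-fold enrichment, and a Pou4f3 summit of iG+P 21047 bp downstream, with 2.96-fold enrichment and 2 overlapping Pou4f matches.

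All 11 summits in the body of Gfi1 lay over its coding exons. The annotation types Gfi1 as a processed transcript and gives it no coding sequence, so the exons were taken from a reading frame. The frame starts at the forward primer of the Gfi1 expression plasmid that the study used in P19 cells, and ends at the stop codon. This frame had 423 codons before the stop in 6 coding exons. Summits were found over coding exons 2, 3 and 4, in 8 of the 9 lists, the exception being iAtoh1.

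Coding exon 3, of 489 bp, held a summit in 7 lists. The Gfi1 list of iGPA had its summit there at 5.72-fold enrichment (3.78 to 8.34), at percentile 76.7 of that list, and this was the only summit of the Gfi1 list at either locus, from 1 library. At least 1 summit of the Gfi1 list was present at 20.1% of all genes. The Pou4f3 lists gave 4.19-fold in iP+A (2.97 to 5.76), 3.45-fold in iPou4f3 (2.33 to 4.93) and 3.04-fold in iGPA (2.08 to 4.29). The Atoh1 lists gave 3.37-fold in iGPA (2.37 to 4.68), 3.07-fold in iG+A (1.97 to 4.58) and 3.01-fold in iP+A (2.02 to 4.33). The values of Atoh1 and Pou4f3 lists overlapped in their intervals.

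Coding exon 2 held Pou4f3 summits of iP+A, at 3.51-fold, and of iG+P, at 2.63-fold. Coding exon 4 held an Atoh1 summit of iGPA, at 3.08-fold, and a Pou4f3 summit of iPou4f3, at 2.50-fold, the lowest fold enrichment among the Gfi1 members. The exon 2 site lay 636 bp from an annotated Gfi1 start, the only site at either gene within 1 kb of a start of that gene.

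Summits over the Gfi1 coding exons were found in lines with and without the inserted copy. They were present in all 5 lists from lines with inserted Gfi1 and in 3 of 4 lists from lines without it, or in 3 of 3 lines and 2 of 3 lines. These counts are a description. The two-sided Fisher's exact test over lines gave p = 1.0, but with 3 lines against 3 it cannot go below 0.10, so it could not have shown a difference. For the other inserted genes, the Atoh1 coding exon had a summit in 7 of 7 lists from lines with the copy and 0 of 2 from lines without, and the Pou4f3 coding exons in 6 of 7 and 2 of 2. These are counts of lists, and lists of the same line, such as those of iGPA and of iP+A, share 1 inserted cassette and are not independent.

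A summit over a coding exon was a rare event in any list. It was present at 5.73% of the 22744 genes with coding exons in the iGPA Atoh1 list, 4.11% in iP+A, 3.79% in iG+A and 2.77% in iAtoh1. In the Pou4f3 lists it was present at 1.30% of genes in iGPA, 2.54% in iP+A, 4.18% in iG+P and 4.66% in iPou4f3, and in the Gfi1 list at 0.422%. Only 11 genes (0.0484%) had such a summit in at least 8 lists. Gfi1 and Pou4f3 were among them, and the other inserted factor gene, Atoh1, was not. The rest of the 11 were not inserted in any line, for example Gm13225 (9 lists), Gdf15 and Maff (8 each).

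Of the 11 exonic peaks, 9 lay wholly inside a Gfi1 coding exon, and the lowest share inside was 61.6%, in the iPou4f3 peak at exon 4. Over all 6917 kept peaks with a summit in a coding exon, 39.6% lay wholly inside that exon. This share was not matched for exon length, and the exon 3 site, seen in 7 lists, lay in an exon of 489 bp. The local background recovered for exon 3 was 1.57 times the usual value of the list in iGPA Pou4f3 and 1.31 times in iGPA Atoh1. It was at the usual value in the iGPA Gfi1 list, in iG+A, and in the lists of iP+A and iPou4f3, which lack inserted Gfi1. The printed exon 3 window was 74.4% G or C, and the 3 exonic sites spanned 59.6% to 74.4%. The part of inserted DNA or of base composition in the exonic peaks was not tested.

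**Figure D2:**
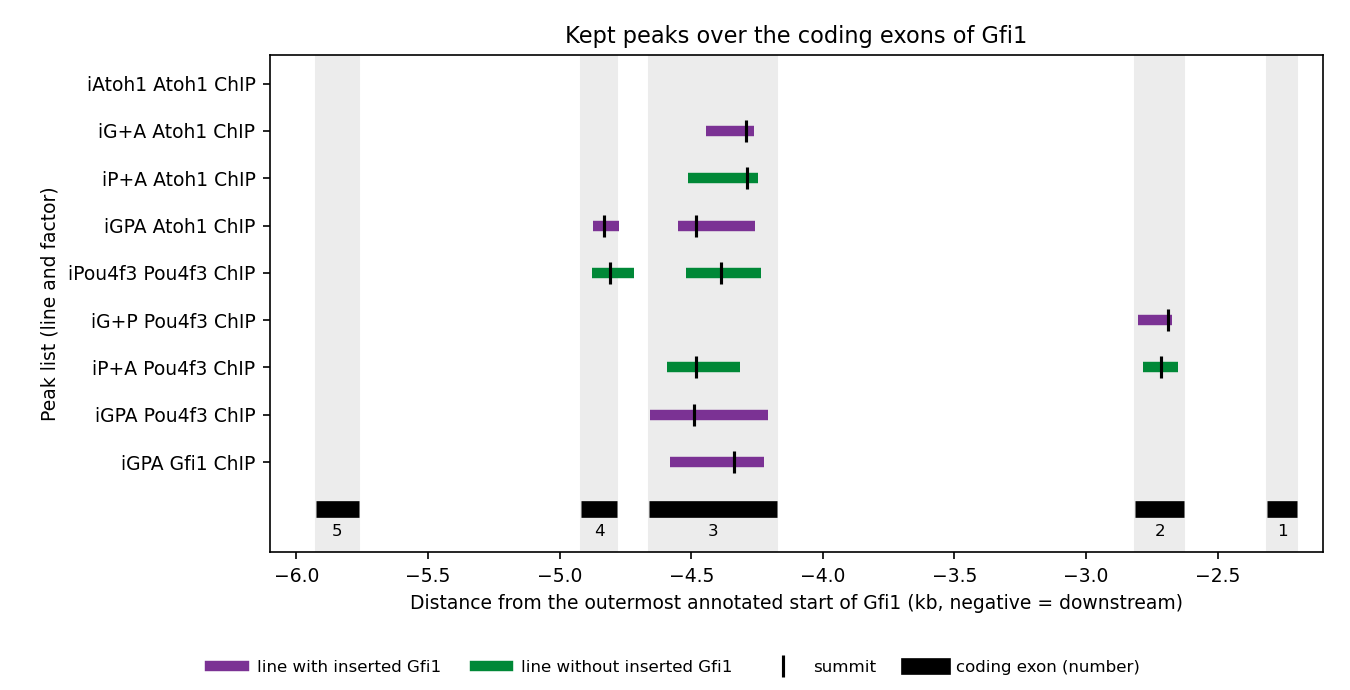
Called intervals (horizontal bars) and summits (vertical ticks) of the kept peaks over Gfi1 coding exons, by peak list (y axis) and distance from the outermost annotated Gfi1 start in kb (x axis, negative downstream). Grey bands and black boxes are numbered coding exons, exon 6 lying outside the plotted range, and colour separates lines with and without inserted Gfi1. Both colours occur at exons 2, 3 and 4, and 9 of the 11 bars end inside an exon.

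At the Gfi1b locus no summit lay in the gene itself. Gfi1b spans chromosome 2 from 28464970 to 28477502 on the minus strand. All 18 summits lay outside its body, 9 in Atoh1 lists, 9 in Pou4f3 lists and 0 in the Gfi1 list, whose nearest kept summit was 82.7 kb from the Gfi1b start. The median over all genes was 9, and 25.4% of genes had 18 or more.

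A site upstream of Gfi1b had a summit in all 4 Atoh1 lists, and 27.2% of all genes had such a site. The site lay 15.3 kb upstream of Gfi1b, between that gene and Tsc1, whose start was nearer at 3.90 kb. Fold enrichment was 4.06 in iGPA (2.82 to 5.68), 2.90 in iP+A (1.93 to 4.21), 2.94 in iG+A (1.87 to 4.42) and 2.93 in iAtoh1 (1.90 to 4.34). The iGPA value was the highest, at percentile 65.1 of its list, but its interval overlapped the others. The window held CAGATG and CATCTG, starting 5 bases to the left and 26 bases to the right of the iGPA summit. This was the only summit of iAtoh1 at either gene.

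The summit nearest the Gfi1b start was an Atoh1 summit of iGPA 8.11 kb upstream, at 3.32-fold (2.21 to 4.81), with 4 E-boxes, of which 3 were CAGCTG. It was present in the iGPA list only.

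The other sites shared between lists at Gfi1b lay at the starts of its neighbours. An exon of Gtf3c5, a subunit of the RNA polymerase III factor TFIIIC, had a site 27 bp from an annotated start, in all 4 Pou4f3 lists and the iGPA Atoh1 list. Pou4f3 fold enrichment was 3.49 in iGPA (2.39 to 4.93), 3.17 in iP+A (2.13 to 4.56), 3.72 in iG+P (2.60 to 5.18) and 4.72 in iPou4f3 (3.39 to 6.40), and the iGPA Atoh1 value was 2.95 (1.92 to 4.37). The iPou4f3 value was the highest fold enrichment among the Gfi1b members, with an interval that overlapped those of the other lists.

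The start of Tsc1, which encodes an inhibitor of mTORC1 signalling, had a site in 5 lists, 56 bp from an annotated start at its strongest summit. Pou4f3 fold enrichment was 3.85 in iP+A, 3.94 in iG+P and 3.87 in iPou4f3, and Atoh1 fold enrichment was 3.44 in iP+A, while iGPA had a pair of Atoh1 summits there at 2.95 and 2.51. The local background of the iPou4f3 peak was 1.89 times the usual value of its list. A further Pou4f3 summit in 1 list lay on each side, in iG+P at 2.52-fold and in iPou4f3 at 3.44-fold. No summit was found in the parts of Cel, Gm13381, U6 or AL731851.1 inside the window.

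**Figure D3:**
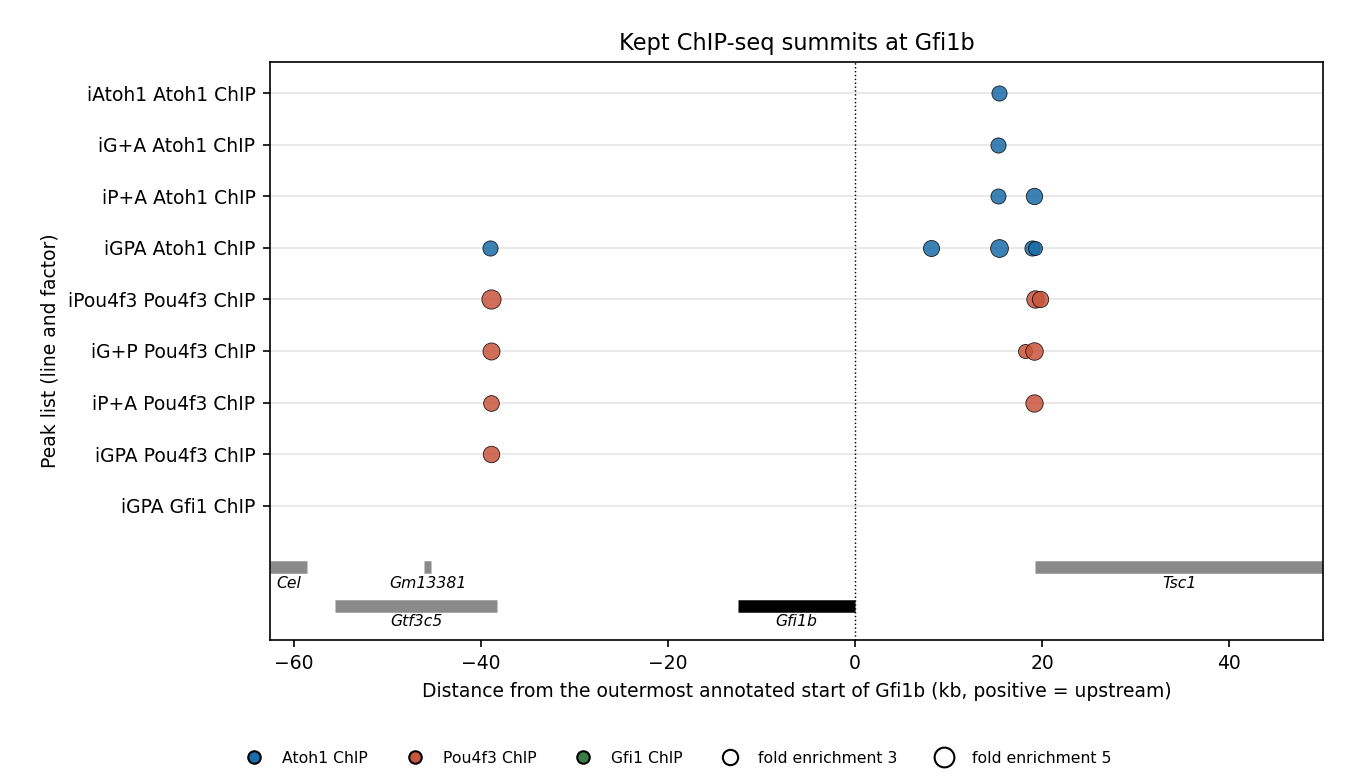
Kept summits at Gfi1b, drawn as for Gfi1, by peak list (y axis) and distance from the outermost annotated Gfi1b start in kb (x axis, positive upstream). The 4 Atoh1 lists share a position 15.3 kb upstream, most other points sit at the starts of Gtf3c5 and Tsc1, and no point lies in Gfi1b.

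**Figure D4:**
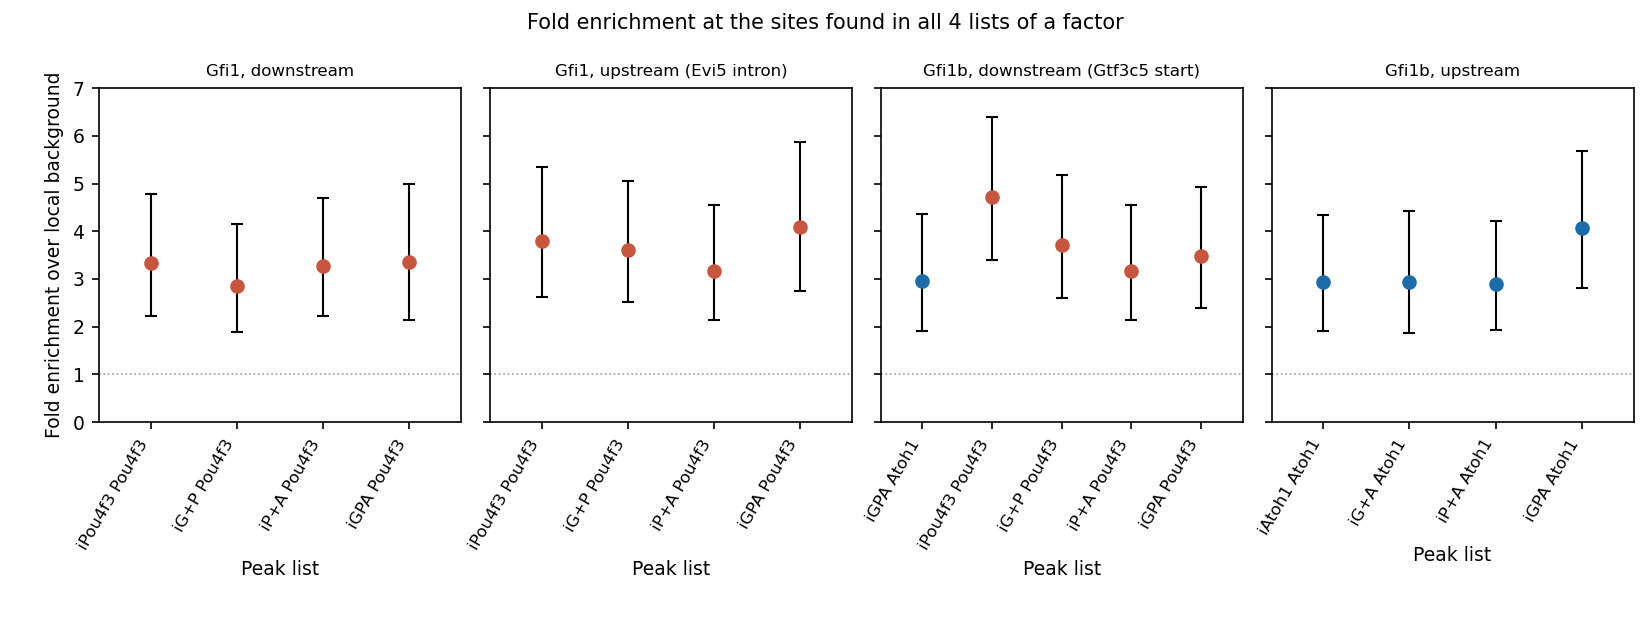
Fold enrichment (y axis, with exact Poisson 95% intervals of the pileup) by peak list (x axis) at the 4 sites with a summit in every list of Pou4f3 (red) or Atoh1 (blue). The dotted line marks a ratio of 1, and within each panel all intervals overlap.

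Summits at both genes stayed below the strongest part of their lists. Fold enrichment ran from 2.50 to 5.72 at Gfi1 and from 2.51 to 4.72 at Gfi1b, and 24 of the 45 summits were at or above the median of their list. Percentiles ran from 2.52 to 82.8, and 0 of 45 reached the top 10% of its list.

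The E-box was found around 11 of the 17 Atoh1 summits (64.7%), beside 65.8% of all 81252 kept Atoh1 summits. The Pou4f pattern was found around 5 of the 27 Pou4f3 summits (18.5%), beside 44.1% of all 90898. The Gfi1 pattern was found at 0 of the 15 sites, including the Gfi1 summit in exon 3, beside 7.01% of all summits in the Gfi1 list. The same summits recur across lists, so these counts are not independent. In the RefSeq promoters of GRCm38.p6, from 250 bases before to 50 after a start, both entries for Gfi1 and the entry for Gfi1b held none of the 3 patterns, beside 30.6% of all 32851 promoters of that length with an E-box, 6.09% with a Pou4f match and 0.694% with a Gfi1 match.

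Genes of related function were counted in the same windows. Of 7 other SNAG-domain genes, 4 had a summit of the Gfi1 list, beside 20.1% of all genes. These were Insm1 with 2, Snai1 with 2, Snai3 with 2 and Snai2 with 1. Of 8 corepressors and partners, 2 had a summit of that list, the histone methyltransferase gene Ehmt2 and Pias3, each with 1, beside 20.1% of all genes. Summits of the 9 lists together ranged in this group from 9 at Zbtb17 and 10 at Hdac2 to 31 at Rcor1 and 36 at Ajuba, beside a median of 9 over all genes. The histone deacetylase gene Hdac2 had 0 summits in the 4 Atoh1 lists, and Rcor1, the CoREST scaffold, had 4 to 6 in each. Per Atoh1 list, 46.6% to 64.4% of all genes had at least 1 summit, and the median was 0 in iAtoh1 and 1 in the others. The windows include the gene body, so they are wider for longer genes. Kdm1a, the demethylase bound by the SNAG domain, had 12 summits in the 9 lists and 0 in the Gfi1 list.

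The protein-coding genes whose counts over the 9 lists were most like those of Gfi1 were 1700094D03Rik, 4933434E20Rik and the tropomyosin gene Tpm3, on chromosome 3, each with a summed absolute difference of 3 summits. For Gfi1b they were Gcfc1 with a difference of 1, and 1110038F14Rik and 4932438H23Rik with 2. The comparison covered 22365 genes for Gfi1 and 22360 for Gfi1b, and neighbouring genes share summits.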

How the data were processed

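Peak lists of 9 line and antibody groups were used, from 29 libraries grouped by their titles. Lists labelled 3TFs were taken as iGPA. According to the methods of the study, adapters were trimmed, reads were mapped to mm9 (Bowtie 2, very-sensitive), and PCR duplicates, poorly mapped reads and those in blacklisted regions were discarded. MACS 2 was then run on the merged replicates of a group with the merged inputs as control. The deposited lists give fold enrichment (a ratio), −log10 of the p-value per peak, and a signal column, not defined in the sources used here and not used. The authors' rule for keeping summits is not given there either.

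Pileup and local background were derived by finding the whole number of reads that gave the deposited fold and −log10 p, with a tolerance of 0.001 (99.4% to 100.0% of kept peaks per list). The usual background, the most frequent value of a list, was 3.55 to 8.30 reads. Steps were tested on simulated data with Python 3.11.15, numpy 2.4.6 and scipy 1.17.1. Gene models were GENCODE vM1 on NCBIM37. Sites named in full were in at least 2 lists, within 1 kb of a start of the gene, over its coding exons, or in the top 10% of fold of their list. Single-list sites named beyond this rule, and the examples among related genes, were chosen after their values were seen. Named genes were all those overlapping a window, and the 3 with the most similar counts per locus. Members and lists were chosen with earlier results of these data known.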

Additional observations from a re-analysis of the deposited data

Results flagged for a closer look

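In the iGPA Pou4f3 list, 1 called peak in the Gfi1b window was left out of the authors' kept summits, on chromosome 2 at 28496729, at the start of Tsc1. Its fold enrichment was 2.97 and its −log10 p 7.26, from a pileup of 28 reads over a local background of 8.77. It lay 19227 bp upstream of Gfi1b, beside the kept Tsc1 summits of the other Pou4f3 lists, and it was outside the comparisons above. The called peaks at Gfi1 were all kept.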

How the results depend on the processing

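No paired analysis was possible because the replicates were merged before peak calling, and for the same reason no replicate could be left out. Alternatives were run for the summit totals, the merged sites, the lines with a coding-exon summit and the sites with a pattern. Of these 22 alternatives, 16 stayed within 1.5 times the main count. The 6 that moved were all alternatives to the summit totals. A −log10 p of at least 10 left 7 of 27 summits at Gfi1 and 6 of 18 at Gfi1b, and the 5000 strongest peaks of each list left 3 at each gene, by construction fewer peaks. In the Gfi1 list, which has fewer than 5000 peaks, all were used. Without coding-exon summits 16 remained at Gfi1. Within 100 kb, Gfi1b had 44 summits, and Gfi1 had 27 as before. Of 72 alternatives to the counts of single lists, 27 moved by over 1.5 times. Merging windows of 100 and 1000 bp gave 13 and 8 sites at Gfi1. At a lower background the same fold gives a lower −log10 p, and the Gfi1 list had the lowest, so a missing peak there says little about binding.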
